A study of Mus musculus with 7 samples.

Results

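The genes described here encode the aggrecan and adaptor proteins of cartilage: aggrecan (Acan), its link protein (Hapln1), the matrilins (Matn1, Matn2, Matn3 and Matn4) and cartilage oligomeric matrix protein (Comp). They were chosen by gene name, 7 of the 52459 names in the count table, and all 7 had enough counts to be among the 13367 genes tested. Aggrecan is the large proteoglycan whose chondroitin sulfate chains hold water and let cartilage bear load. It binds hyaluronan, and link protein locks that bond, so that many aggrecan molecules sit on a single hyaluronan strand. Matrilins and COMP are adaptors that bind collagen fibrils, aggrecan and each other, and mutations in the human genes for matrilin-3 and COMP cause multiple epiphyseal dysplasia.

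RNA was sequenced in bulk from primary mouse chondrocytes of the femoral head, the cartilage cap of the hip joint, which were kept in culture with serum and exposed for 24 h to vehicle, TGFβ1 at 5 ng/ml or BMP2 at 100 ng/ml. TGFβ1 and BMP2 belong to one family of secreted signals, and both act on the matrix production of chondrocytes. There were 7 libraries: vehicle replicates 1 and 2, TGFβ1 replicates 1 and 3, and BMP2 replicates 1, 2 and 3. Age, sex and strain of the mice were not stated in the labels used here, and neither was the origin of a replicate (an animal, a culture or a second library), so p-values measure only how far these samples spread, and that spread may be technical. All values come from cells outside the joint, and in bulk RNA fewer cells of a type and less RNA per cell cannot be told apart.

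Depth and composition differed between the groups. Total counts ran from 6747997 to 10686885 in the vehicle and BMP2 libraries and were 18047765 and 16271793 with TGFβ1. Ribosomal protein genes took 6.74% and 6.84% of the counts with TGFβ1 and 1.11% to 1.45% in the other 5 libraries. Short genes were higher with TGFβ1: the median log2 difference from vehicle was 2.67 over the 738 tested genes of at most 1000 nt and −0.39 over the 2886 genes longer than 7000 nt, while the medians for BMP2 lay between −0.04 and 0.04. The 7 genes here are 2001 to 7469 nt long by the deposited length, where the TGFβ1 medians ran from 0.22 to −0.39. Treatment and this length trend cannot be told apart in the TGFβ1 libraries, so fits that remove the trend (the length offsets, by deposited length or by length and GC content of the reference transcript) were run beside the main one. Their values stand beside the comparisons of the 7 genes with TGFβ1, and for other genes where they end a call or move a value by over 1.5 times. The chi-square per gene between replicates, which grows with depth, was highest with TGFβ1, at 40.7. BMP2 replicate 1 stood apart from BMP2 replicates 2 and 3, with 14.4 and 18.5 against each of them and 1.88 between those 2, and the vehicle libraries gave 4.75. The correlation of log2 CPM did not rank TGFβ1 as most different. It was 0.9895 with TGFβ1 and 0.9894 with vehicle. For BMP2 replicate 1 it was 0.9846 and 0.9857 against replicates 2 and 3, which gave 0.9931 with each other.

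Cartilage genes were abundant in every library, as the label of the cells says. Col2a1, the main cartilage collagen, was at 26949 to 35844 CPM (counts as CPM, each library scaled to its TMM-adjusted size) in every library. The 11 chondrocyte markers did not move together. Sox9 was at 528 to 556 CPM with vehicle, 184 to 227 with TGFβ1 and 529 to 678 with BMP2. In the same order, Snorc was at 413 to 419, 4646 to 5110 and 528 to 1036 CPM. Ucma was at 232 to 269, 1437 to 2650 and 54.3 to 56.1 CPM. Snorc and Ucma are short genes (722 and 884 nt by deposited length). Endothelial and erythroid marker lists summed to at most 1.86 and 0.221 CPM in any library, with the endothelial marker Cdh5 at 0 throughout, and 8 leukocyte markers summed to 15.8 to 33.0 CPM with the T cell marker Cd3e at 0. The 8 fibroblast and synovial markers summed to 1540 to 1594 CPM with vehicle, 1398 to 1567 with TGFβ1 and 591 to 640 with BMP2, almost all of it Dcn, and Clec3b was at 0 throughout. The 5 tendon markers summed to 24.7 to 27.4 CPM with vehicle, 60.3 to 68.1 with TGFβ1 and 13.9 to 17.7 with BMP2. Most of the TGFβ1 sum was Scx (1136 nt by deposited length), at 7.66 to 7.89 CPM with vehicle and 44.1 to 47.1 with TGFβ1. Mkx went the other way, from 6.15 to 7.66 CPM with vehicle to 3.97 to 5.04 with TGFβ1. Thbs4 was at 9.9 to 11.7 CPM with vehicle and 11.8 to 15.2 with TGFβ1. Tnmd and Kera were at most 0.687 CPM in any library. The 7 osteoblast markers did not move together: their sums were 1091 to 1257, 1318 to 1352 and 686 to 755 CPM in the same order. Spp1 was most of the sum with vehicle and with TGFβ1, but not with BMP2, where it was at 283 to 325 CPM. Alpl was at 50.1 to 62.7, 18.1 to 24.0 and 189 to 219 CPM and Sp7 at 24.9 to 31.8, 13.9 to 18.6 and 67.5 to 73.0 CPM. Sums were, for 5 pericyte markers 214 to 219, 379 to 385 and 308 to 361, for 4 adipocyte markers 4.68 to 8.37, 49.9 to 56.9 and 8.66 to 17.8, for 4 skeletal muscle markers 8.29 to 17.7, 29.6 to 38.1 and 8.75 to 14.2, and for 5 osteoclast markers 89.1 to 94.3, 121 to 125 and 101 to 141. Most of each of these sums came from a single gene: Cspg4 for pericytes, Fabp4 for adipocytes, Tnnt3 for skeletal muscle and Ctsk for osteoclasts. The part of these shifts in marker levels in the results below was not tested.

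Promoter sequence is shown for the gene that moved in opposite directions with the ligands (Acan), for the gene that was lower with both (Matn1) and for the matrilin that was lower with TGFβ1 and was not called with BMP2 (Matn3). Of the 7 genes, 5 matched the RefSeq promoter table (GRCm38.p6, the build also called mm10), and these 3 windows hold no base of an annotated exon. Each is the stretch of 250 bases before the start site on the plus strand, written 5′ to 3′: chr7:79052976-79053225 for Acan, chr4:130944135-130944384 for Matn1 and chr12:8947679-8947928 for Matn3. Capitals mark CAGAC, the short SMAD-binding box, or its reverse complement GTCTG.
Acan: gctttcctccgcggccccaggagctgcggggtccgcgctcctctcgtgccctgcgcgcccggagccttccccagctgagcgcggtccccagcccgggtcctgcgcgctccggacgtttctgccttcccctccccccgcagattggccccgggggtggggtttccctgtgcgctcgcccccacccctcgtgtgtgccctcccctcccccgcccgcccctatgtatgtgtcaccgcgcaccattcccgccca
Matn1: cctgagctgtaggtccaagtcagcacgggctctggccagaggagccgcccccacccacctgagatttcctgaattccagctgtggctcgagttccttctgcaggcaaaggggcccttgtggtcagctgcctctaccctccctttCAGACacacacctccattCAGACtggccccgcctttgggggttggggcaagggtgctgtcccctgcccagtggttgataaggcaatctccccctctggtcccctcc
Matn3: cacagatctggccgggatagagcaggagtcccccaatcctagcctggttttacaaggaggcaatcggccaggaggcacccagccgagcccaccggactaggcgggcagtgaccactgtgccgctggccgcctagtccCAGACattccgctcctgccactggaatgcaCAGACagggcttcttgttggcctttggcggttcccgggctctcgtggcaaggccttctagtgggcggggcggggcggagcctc
The Matn1 window held CAGAC at 106 to 102 and at 88 to 84 bases before the start, and the Matn3 window held it at 113 to 109 and at 83 to 79 bases before the start. The Acan window held none. It ends at 79053225, upstream of the GENCODE M21 gene start at 79053483, whereas the Matn1 and Matn3 windows end directly before theirs. The box is common: 42.2% of all 32851 windows of this length in the table hold it on either strand, so a match describes the letters and no more. None of the 3 windows held GGCGCC (a BMP-type SMAD box, in 9.6% of windows), AACAAT or ACAAAG (letters close to SOX-type sites, in 9.4% and 16.5%) or TATAAA (12.4%), each searched on both strands, and no motif of these 5 contains another. GC content was 74.4% for Acan, 62.0% for Matn1 and 65.2% for Matn3, above the median of 52.4% over all windows.

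Acan lies on the plus strand of chromosome 7 at 79053483 to 79115099 (mm10, GENCODE M21), in 18 exon blocks with an exonic length of 7469 nt. Its level was 3580 and 3332 CPM with vehicle (replicates 1 and 2), 1792 and 1968 CPM with TGFβ1 (replicates 1 and 3), and 5556, 5136 and 5433 CPM with BMP2 (replicates 1, 2 and 3). Every TGFβ1 library was below both vehicle libraries and every BMP2 library above them, with no overlap between any pair of groups. Acan fell with TGFβ1 (log2 fold change −0.88, SE 0.13, edgeR adjusted p = 0.000218, a level 0.544 times that of vehicle) and rose with BMP2 (0.64, SE 0.12, edgeR adjusted p = 0.00656, 1.56 times vehicle). The fall was −0.73 with the offset for deposited length and −0.62 with the offset for length and GC content of the reference transcript, and remained past the threshold with both. The BMP2 rise passed in 12 of 15 alternative settings: without vehicle replicate 1 it was 0.69 (edgeR adjusted p = 0.0606) and without vehicle replicate 2 it was 0.59 (edgeR adjusted p = 0.109).

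Hapln1 (chromosome 13, 89539796 to 89611652, plus strand, 5 exon blocks, 5902 nt) was at 1124 and 1083 CPM with vehicle, 237 and 281 CPM with TGFβ1, and 1302, 1534 and 1591 CPM with BMP2. The TGFβ1 libraries were far below all others, and the BMP2 libraries were above vehicle by a margin no larger than the distance between BMP2 replicate 1 and BMP2 replicate 3. Link protein RNA fell 4.27-fold with TGFβ1 (log2 −2.09, SE 0.15, edgeR adjusted p = 1.25e-06; −2.04 and −1.65 with the length offsets). With BMP2 the difference was 0.42 (SE 0.14, edgeR adjusted p = 0.0770), which did not pass. It passed in 8 of 15 alternative settings, among them the fits without BMP2 replicate 1 (0.50), without TGFβ1 replicate 1 (0.42) and without TGFβ1 replicate 3 (0.42).

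**Figure D1:**
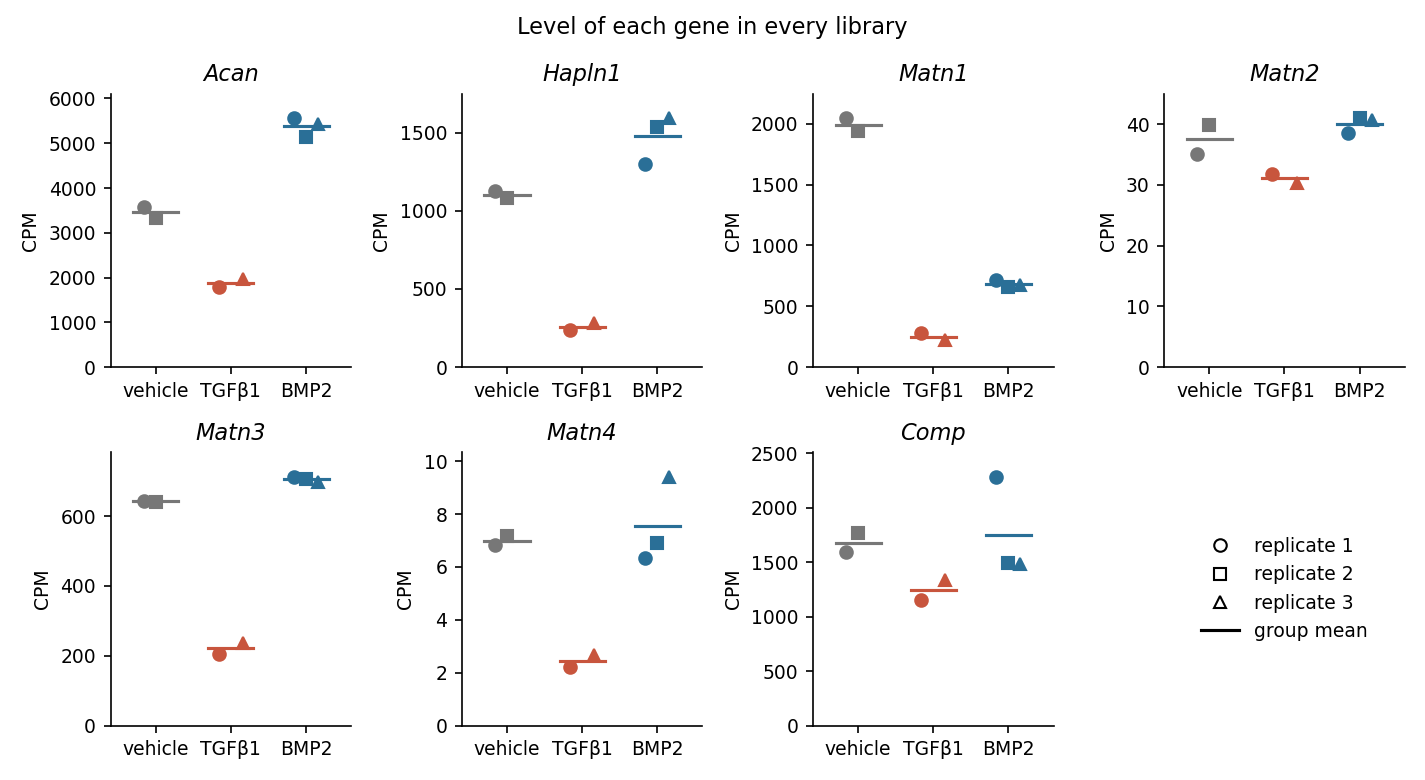
Level of each of the 7 genes in every library, in CPM on linear axes that start at 0, with 1 panel per gene, 1 symbol per library and a bar at the group mean. Acan is lowest with TGFβ1 and highest with BMP2, Matn1 is highest with vehicle, and the BMP2 libraries of Comp spread from 1481 to 2285 CPM.

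Set against aggrecan within each library, link protein was relatively scarcer with TGFβ1. Per kilobase of deposited gene length, the ratio of Hapln1 to Acan was 0.397 and 0.411 with vehicle, 0.167 and 0.180 with TGFβ1, and 0.297, 0.378 and 0.371 with BMP2. Such a ratio needs no scaling between libraries, but it still carries the length trend, as Acan is the longer gene. With the length offsets the TGFβ1 values were −2.04 for Hapln1 and −0.73 for Acan by deposited length, and −1.65 and −0.62 by length and GC content. The TGFβ1 ratios were below the others, and the BMP2 ratios were below the vehicle ratios, with BMP2 replicate 1 the lowest of its group.

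Matn1, the matrilin first isolated from cartilage, lies on chromosome 4 at 130944385 to 130955475 (plus strand, 8 exon blocks, 2001 nt). Its level was 2044 and 1939 CPM with vehicle, 278 and 225 CPM with TGFβ1, and 713, 662 and 673 CPM with BMP2. No group overlapped another: both ligands left Matn1 below vehicle, and TGFβ1 further below than BMP2. It fell 7.93-fold with TGFβ1 (log2 −2.99, SE 0.15, edgeR adjusted p = 7.22e-08) and 2.92-fold with BMP2 (log2 −1.54, SE 0.13, edgeR adjusted p = 5.11e-05). Both falls passed in 15 of 15 alternative settings, and with the length offsets the TGFβ1 value was −3.51 and −3.39. Only 0.8% of the tested genes had a lower log2 fold change with TGFβ1, and 1.8% with BMP2.

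Matn3, the matrilin of growing cartilage whose human gene is tied to skeletal dysplasia, lies on chromosome 12 at 8947929 to 8972028 (plus strand, 8 exon blocks, 3014 nt). It was at 644 and 641 CPM with vehicle, 207 and 238 CPM with TGFβ1, and 713, 707 and 699 CPM with BMP2. The BMP2 libraries lay above the vehicle libraries without overlap, but by a small margin. Matn3 fell 2.89-fold with TGFβ1 (log2 −1.53, SE 0.13, edgeR adjusted p = 3.75e-06; −1.76 and −1.54 with the length offsets). With BMP2 the difference was 0.14 (95% interval −0.12 to 0.39, edgeR adjusted p = 0.515).

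The ratio of Matn1 to Matn3 per kilobase was 4.78 and 4.56 with vehicle, 2.03 and 1.42 with TGFβ1, and 1.51, 1.41 and 1.45 with BMP2. The balance between these 2 matrilins was thus lower in both treated groups than with vehicle. The treated groups overlapped each other, and the TGFβ1 libraries differed from each other by more than the BMP2 libraries did. The ratio of Matn3 to Acan was 0.446 and 0.477 with vehicle, 0.286 and 0.30 with TGFβ1, and 0.318, 0.341 and 0.319 with BMP2. It was therefore lower with each ligand, in the TGFβ1 libraries with both genes below vehicle and in the BMP2 libraries with Acan above it.

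**Figure D2:**
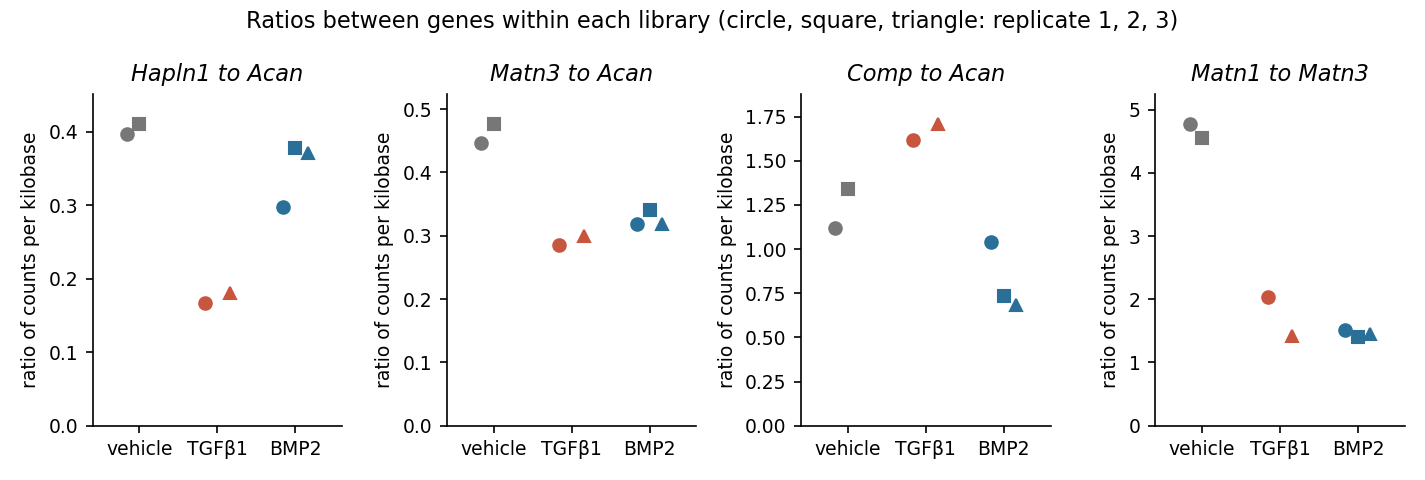
Ratios of counts per kilobase between 2 genes within each library, on linear axes that start at 0, with 1 symbol per library. Hapln1 to Acan is lowest with TGFβ1 (0.167 and 0.180), Comp to Acan is highest with TGFβ1 (1.62 and 1.71), which the length offsets do not retain (−0.67 for Comp and −0.73 for Acan against vehicle), and Matn1 to Matn3 is highest with vehicle (4.56 and 4.78).

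Matn2 and Matn4, the matrilins that are also made outside cartilage, were the scarce members. Matn2 (chromosome 15, 34306677 to 34436273, plus strand, 20 exon blocks, deposited length 3583 nt) was at 35.2 and 39.8 CPM with vehicle, 31.9 and 30.4 CPM with TGFβ1, and 38.6, 41.0 and 40.7 CPM with BMP2. The TGFβ1 libraries were the lowest without overlap, and the vehicle and BMP2 ranges overlapped. Neither difference from vehicle passed: it was −0.27 with TGFβ1 (SE 0.12, 95% interval −0.54 to −0.0012, edgeR adjusted p = 0.0801) and 0.09 with BMP2 (SE 0.11, interval −0.15 to 0.34, edgeR adjusted p = 0.651). With the deposited-length offset the TGFβ1 value was −0.40 (edgeR adjusted p = 0.0156). Of the Matn2 exon bases, 1.12% are shared with 9430069I07Rik, which runs along the opposite strand, and no source used here says if counting used strand.

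Matn4 (chromosome 2, 164389393 to 164405160, minus strand, 12 exon blocks, deposited length 5174 nt) rests on few counts. Its raw counts were 51 and 60 with vehicle, 30 and 35 with TGFβ1, and 74, 52 and 100 with BMP2. As levels these were 6.82 and 7.18 CPM, 2.21 and 2.67 CPM, and 6.35, 6.89 and 9.41 CPM in the same order, so the TGFβ1 libraries were below the rest and the other 2 groups overlapped. Matn4 fell with TGFβ1 (log2 −1.52, SE 0.27, edgeR adjusted p = 0.000711; −1.50 and −1.73 with the length offsets). With BMP2 the difference was 0.11 (SE 0.22, interval −0.38 to 0.60, edgeR adjusted p = 0.810), and it turned to −0.09 without BMP2 replicate 3. Exons of Rbpjl on the other strand overlap 2.88% of the Matn4 exon bases.

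Comp, a member of the thrombospondin family, lies on chromosome 8 at 70373558 to 70382066 (plus strand, 20 exon blocks, deposited length 2967 nt). Its level was 1593 and 1768 CPM with vehicle, 1151 and 1340 CPM with TGFβ1, and 2285, 1497 and 1481 CPM with BMP2. The TGFβ1 libraries were below both vehicle libraries. The BMP2 libraries lay on both sides of vehicle, with replicate 1 above every other library and replicates 2 and 3 below both vehicle libraries. The difference of TGFβ1 from vehicle was −0.43 (SE 0.21, interval −0.89 to 0.03, edgeR adjusted p = 0.100) and did not pass. With the length offsets it was −0.67 (edgeR adjusted p = 0.0156) and −0.68 (edgeR adjusted p = 0.00709), and without BMP2 replicate 1 it was −0.43 and passed (edgeR adjusted p = 0.00626). The difference of BMP2 from vehicle was 0.06 (SE 0.19, interval −0.36 to 0.48, edgeR adjusted p = 0.883), and without BMP2 replicate 1 it was −0.18 (edgeR adjusted p = 0.338).

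The ratio of Comp to Acan per kilobase was 1.12 and 1.34 with vehicle, 1.62 and 1.71 with TGFβ1, and 1.04, 0.734 and 0.686 with BMP2. The 3 groups did not overlap, with the highest ratios in the TGFβ1 libraries and the lowest in the BMP2 libraries. The higher TGFβ1 ratio is not seen with the length offsets: there the difference of TGFβ1 from vehicle was −0.67 for Comp and −0.73 for Acan by deposited length, and −0.68 and −0.62 by length and GC content. In BMP2 replicate 1 the ratio lay closer to the vehicle libraries than to the other BMP2 libraries.

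Read as a group, 5 of the 7 genes fell with TGFβ1 and none rose, while 56.2% of all tested genes were called in this comparison, 25.8% as lower and 30.4% as higher. The CPM ranges of TGFβ1 and vehicle did not overlap for any of the 7 genes, nor for 80.1% of all tested genes. The median log2 fold change of the 7 was −1.52, beside −0.02 over all tested genes. The 5 falls (Acan, Hapln1, Matn1, Matn3 and Matn4) passed in 15 of 15 alternative settings each, and Matn2 and Comp passed in 1 and 5 of 15. With BMP2, Acan rose, Matn1 fell and the other 5 were not called (without vehicle replicate 1 or without vehicle replicate 2, only Matn1 was called), where 11.5% of tested genes were called, 5.33% as higher and 6.15% as lower. The ranges of BMP2 and vehicle did not overlap for 4 genes (Acan, Hapln1, Matn1 and Matn3), as for 44.6% of all tested genes, and the median of the 7 was 0.11, beside 0.00 over all tested genes. Both comparisons use the same vehicle libraries, so their values for a gene are not independent.

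**Figure D3:**
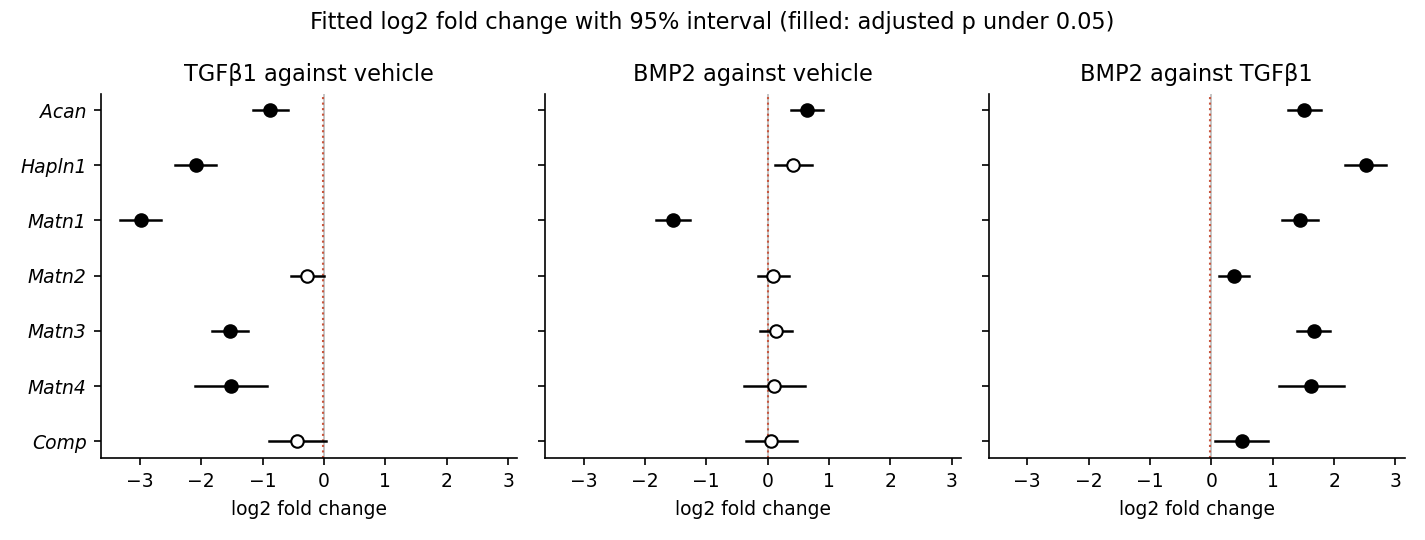
Fitted log2 fold change of each of the 7 genes in the 3 comparisons, with its 95% interval; filled points have an adjusted p under 0.05 and the dotted line is the median of all tested genes. All 7 points lie below 0 for TGFβ1 against vehicle and above 0 for BMP2 against TGFβ1, while for BMP2 against vehicle Acan (0.64) and Matn1 (−1.54) are filled on opposite sides.

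The direct comparison of the ligands tests the difference between their effects. All 7 genes were higher with BMP2 than with TGFβ1, where 61.4% of tested genes were called, 28.1% as higher and 33.3% as lower. The ranges of the 7 did not overlap, nor did those of 73.7% of all tested genes. Hapln1 showed the widest gap of the 7, 5.71-fold (log2 2.51, SE 0.15, edgeR adjusted p = 1.65e-07). Matn3 was higher by 1.67 (SE 0.12, edgeR adjusted p = 8.98e-07), Acan by 1.52 (SE 0.12, edgeR adjusted p = 2.02e-06) and Matn1 by 1.44 (SE 0.13, edgeR adjusted p = 5.91e-06). Matn4 was higher by 1.63 (SE 0.24, edgeR adjusted p = 0.000173). For these 5 genes the call held in 15 of 15 alternative settings. With the offsets by deposited length and by length and GC content, the differences were 2.52 and 2.11 for Hapln1, 1.89 and 1.63 for Matn3, 1.43 and 1.40 for Acan, 1.98 and 1.89 for Matn1, and 1.66 and 1.88 for Matn4.

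The ligand differences of Comp and Matn2 were smaller and less stable. Matn2 was higher with BMP2 by 0.36 (SE 0.11, edgeR adjusted p = 0.0143), which passed in 12 of 15 settings was 0.52 and 0.40 with the length offsets, and was 0.33 without TGFβ1 replicate 3 (edgeR adjusted p = 0.0637). Comp was higher by 0.49 (SE 0.19, edgeR adjusted p = 0.0452), which passed in 9 of 15. With the length offsets it was larger, 0.73 (edgeR adjusted p = 0.00579) and 0.76 (edgeR adjusted p = 0.00185). Without BMP2 replicate 1 the Comp difference was 0.26 (edgeR adjusted p = 0.0609), without TGFβ1 replicate 1 it was 0.38 (edgeR adjusted p = 0.183), and without vehicle replicate 2 it was 0.50 (edgeR adjusted p = 0.0644).

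**Figure D4:**
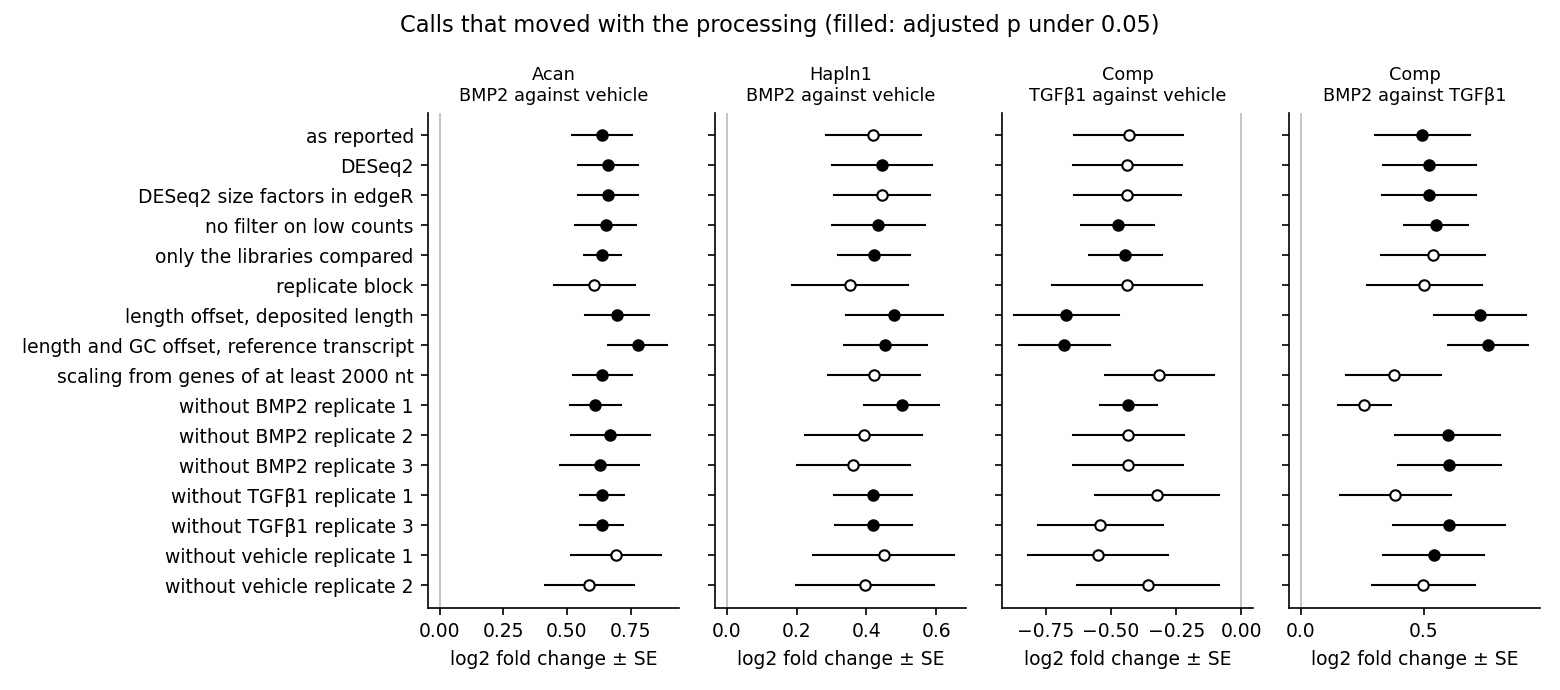
Log2 fold change with its SE for 4 results whose call moved with the processing, each as reported and in 15 alternative settings; filled points have an adjusted p under 0.05. Acan with BMP2 is open in 3 settings, and Comp in BMP2 against TGFβ1 drops from 0.49 to 0.26 without BMP2 replicate 1.

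Levels can be compared between the genes only per length. With vehicle, Matn1 stood at 995 CPM per kilobase, ahead of Comp at 567, Acan at 463, Matn3 at 213, Hapln1 at 187, Matn2 at 10.5 and Matn4 at 1.35, and both vehicle libraries gave this order. With TGFβ1 both libraries put Comp first at 420, then Acan at 252, Matn1 at 126, Matn3 at 73.7, Hapln1 at 43.8, Matn2 at 8.69 and Matn4 at 0.472. With BMP2, the mean was 720 CPM per kilobase for Acan, 591 for Comp, 341 for Matn1, 250 for Hapln1 and 234 for Matn3. Matn1 thus went from the first place to the third with either ligand. BMP2 replicates 2 and 3 had Acan first and Hapln1 above Matn3, whereas replicate 1 had Comp first and Matn3 above Hapln1, so these neighbours do not differ beyond the spread of the BMP2 group. Some levels depend on the length used, though the order did not: with the length of the reference transcript the vehicle level was 3.04 CPM per kilobase for Matn4 (2304 nt) and 696 for Comp (2416 nt), and 10.6 for Matn2.

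The 7 genes together took 0.981% and 0.997% of all counts with vehicle, 0.279% and 0.329% with TGFβ1, and 1.16%, 1.07% and 1.08% with BMP2. Acan alone made up 39.7% and 37.8% of those counts with vehicle, 48.5% and 48.2% with TGFβ1, and 52.4%, 53.6% and 54.7% with BMP2. Its share was thus larger with each ligand, against a smaller sum with TGFβ1. Ranked per kilobase among all gene names, Acan was at place 40 in both vehicle libraries, 23 to 25 with BMP2, and 398 and 330 with TGFβ1. Matn1 was at place 18 and 16 with vehicle, 61, 55 and 57 with BMP2, and 583 and 572 with TGFβ1. The shares are of total counts, without TMM scaling. Both the TGFβ1 shares and the TGFβ1 ranks stand beside short genes that were high in those libraries, whose part in them was not tested.

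Other genes whose pattern over the 7 libraries was closest to each member were named by the root mean square difference of centred log2 of CPM plus 1. This is a description over 7 libraries in 3 groups. The added 1 shrinks the changes of genes at few CPM, such as Matn4, Metrn and Npnt. Npnt was at 0.147 and 0.153 CPM with TGFβ1 and 5.88 and 7.30 CPM with vehicle. Closest to Acan were Unc5b (0.09), Mboat2 (0.10) and Enpp2 (0.10). Closest to Hapln1 were Raph1 (0.08), Col27a1 (0.12) and Ldlrad3 (0.12), and closest to Matn3 were Elmsan1 (0.06), Ptx3 (0.08) and Metrn (0.09). Matn1 had no gene as near: Npnt (0.21), Cdkn1c (0.22) and Zim1 (0.27) came first. Comp was closest to Ppp3r1 (0.06), 9530068E07Rik (0.08) and Kdm2b (0.08), all of which were also highest in BMP2 replicate 1. Matn4 was closest to Ank2, Prkce and Gpcpd1 (0.09 each), and Matn2 to Socs7, Rnf141 and Terf2 (0.04 each).

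The partners of these proteins were counted in 6 lists of 86 genes, of which 82 were tested; these lists were chosen with results of these data known. Called list genes with BMP2 went from 28 to 14 without vehicle replicate 1 and to 16 without vehicle replicate 2. The shares of all tested genes to set beside the counts are 30.4% higher and 25.8% lower with TGFβ1 and 5.33% higher and 6.15% lower with BMP2. Of 8 cartilage collagens, 4 fell with TGFβ1 and none rose, which is near the share of 56.2% called in either direction (list median −0.41, beside −0.02 over all tested genes): Col27a1 went from 764 ± 53.4 to 153 ± 9.12 CPM (SD, n = 2 each), Col9a1 from 2121 ± 23.0 to 628 ± 41.0 and Col11a1 from 7860 ± 262 to 3186 ± 132, and Col9a3 fell by 0.49 on the log2 scale. The fall of Col11a1, by 1.30, was −0.93 and −0.82 with the length offsets. Without TGFβ1 replicate 3 the count was 7 of 8. The Col9a3 call was lost without vehicle replicate 1 (edgeR adjusted p = 0.0531) or 2 (edgeR adjusted p = 0.0585), and Col2a1 differed by −0.26 (edgeR adjusted p = 0.146) and by −0.05 with the offset for length and GC content. With BMP2, 2 of the 8 rose (median 0.23, beside 0.00): Col10a1, the collagen of hypertrophic cartilage, by 1.13 and Col9a3 by 0.61, the latter lost without vehicle replicate 1 (edgeR adjusted p = 0.109) or 2 (edgeR adjusted p = 0.139). Col2a1 differed by −0.20 with BMP2 (edgeR adjusted p = 0.394).

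Of 9 transcription factors of chondrocytes, 7 fell and 2 rose with TGFβ1 in the main fit (median −0.65), beside 25.8% of tested genes called as lower. All but Sox9, Nkx3-2 and Runx3 are longer than 7000 nt by deposited length, where the TGFβ1 median of tested genes was −0.39. Sox9, the main activator of cartilage genes, fell by 1.40, and Runx1 rose by 2.75. The SOX9 partners Sox6 and Sox5 fell by 0.65 and 0.60 in the main fit, but with the length offsets Sox6 was −0.21 and −0.10 (edgeR adjusted p = 0.159 and 0.497) and Sox5 −0.18 and −0.13 (edgeR adjusted p = 0.238 and 0.389). The list median given above is the main-fit value of Sox6, and the count of 7 falls does not hold with the length offsets. With BMP2, Mef2c, a factor of hypertrophic maturation, rose by 1.05 and Runx1 fell by 0.64 (median −0.06), the Runx1 call being lost in 7 of the 15 settings. Without either vehicle library, or without BMP2 replicate 1 or 3, 1 factor was called with BMP2. Sox9 differed by 0.20 with BMP2 (edgeR adjusted p = 0.444).

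Of 15 tested genes for hyaluronan, its receptors and the other lecticans, 8 rose and none fell with TGFβ1 (median 0.61), a share called close to the 56.2% of all tested genes. Versican (Vcan), the hyaluronan-binding proteoglycan of looser matrix, went from 3.82 ± 0.681 to 36.4 ± 0.0502 CPM, and the link proteins Hapln3 and Hapln4 rose by 1.43 and 2.04. The hyaluronan receptor Cd44 rose by 1.11, and of the hyaluronan synthases Has1 went from 0.0669 ± 0.0946 to 6.52 ± 0.171 CPM (edgeR adjusted p = 8.71e-05) while Has2 differed by −0.44 (edgeR adjusted p = 0.0637). Has2 passed in some settings, among them the deposited-length offset (−0.56, edgeR adjusted p = 0.0298) and the fit without BMP2 replicate 1 (edgeR adjusted p = 0.0193). It was −0.16 with the offset for length and GC content. With BMP2, 3 rose and 2 fell (median 0.23): Hapln4 rose by 1.98, to 5.73 CPM, and Cemip, which takes part in hyaluronan breakdown, fell by 2.49. With TGFβ1, Cemip rose by 1.56. Vcan rose by 0.68 with BMP2, a call lost in 9 of the 15 settings, while Hapln3 and Has2 differed by 0.23 and 0.41 and did not pass. The 5 BMP2 calls became 3 without vehicle replicate 1 and 2 without vehicle replicate 2.

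Of 24 tested genes that build chondroitin sulfate, 9 rose and 8 fell with TGFβ1 (median 0.02), near the shares of 30.4% and 25.8% over all tested genes, and 5 rose and 1 fell with BMP2 (median 0.17), beside 5.33% and 6.15%. Csgalnact1, which starts chain growth, fell with both ligands, from 226 ± 19.9 CPM with vehicle to 80.0 ± 2.85 with TGFβ1 (n = 2) and 142 ± 14.2 with BMP2 (n = 3). The sulfate transporter Slc26a2 fell by 1.21 with TGFβ1 (−0.85 and −0.69 with the length offsets) and rose by 0.44 with BMP2, a call lost without vehicle replicate 1 or 2 and without BMP2 replicate 2 or 3 (edgeR adjusted p = 0.183, 0.309, 0.135 and 0.14). Ugdh, which makes the UDP-glucuronate for the chains, rose by 0.61 and 0.96. The 6 BMP2 calls became 3 without BMP2 replicate 2, 2 without BMP2 replicate 3, and 1 and 2 without vehicle replicates 1 and 2. The BMP2 call of Csgalnact1 was lost without vehicle replicate 1 (edgeR adjusted p = 0.0968).

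Of 10 tested genes of aggrecan breakdown and its inhibitors, 4 rose and 3 fell with TGFβ1 (median −0.16), near the shares of 30.4% and 25.8% over all tested genes. Timp1, an inhibitor of metalloproteinases, went from 463 ± 4.13 to 8519 ± 1085 CPM, a rise of 4.20 that was 2.62 and 2.28 with the length offsets. The proteases Htra1 and Mmp14 rose by 1.89 and 1.35. The aggrecanases moved both ways: Adamts1 and Adamts5 fell by 1.62 and 0.89, while the scarce Adamts4 rose by 2.03, from 0.647 to 2.62 CPM (edgeR adjusted p = 0.0181). The Adamts4 call was lost with DESeq2 (DESeq2 adjusted p = 0.0527) and with the replicate block (edgeR adjusted p = 0.0723). Its value also depended on single libraries. With 1 library left out it ran from 1.47 (without vehicle replicate 2) to 2.79, and it was 1.93 without TGFβ1 replicate 1. Adamts9, on the same list, was lower (log2 −2.82). Adamts5 was −0.68 without vehicle replicate 1 and −0.26 with the offset for length and GC content (edgeR adjusted p = 0.314). With BMP2, 5 of the 10 fell and none rose (median −0.53): Mmp13 by 1.89, Adamts5 by 1.00, Mmp3 by 0.79, Htra1 by 0.69 and Mmp14 by 0.60. Without vehicle replicate 1 the calls of Adamts5 (edgeR adjusted p = 0.165), Mmp14 (edgeR adjusted p = 0.0733) and Mmp3 (edgeR adjusted p = 0.0609) were lost and 2 were left. Without vehicle replicate 2 those of Htra1 (edgeR adjusted p = 0.0775) and Mmp3 (edgeR adjusted p = 0.209) were lost and 3 were left. The Mmp3 call was also lost without BMP2 replicate 2 (edgeR adjusted p = 0.0702) or 3 (edgeR adjusted p = 0.078).

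Of 16 tested adaptors and thrombospondins other than COMP and the matrilins, 9 rose and 2 fell with TGFβ1 (median 0.40), beside 30.4% of all tested genes called as higher and 25.8% as lower. Chondroadherin (Chad) rose by 2.88, the cartilage intermediate layer proteins Cilp and Cilp2 by 4.77 and 1.96, and Thbs2 by 1.57, while Thbs1 fell by 0.84 (−0.78 and −0.56 with the length offsets). With BMP2, 6 fell and 2 rose (median −0.48): Dcn fell by 1.35, Thbs1 by 1.24 and Thbs2 by 1.26, and Thbs3 rose by 1.06. Dcn is also the main part of the fibroblast marker sum given above.

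**Figure D5:**
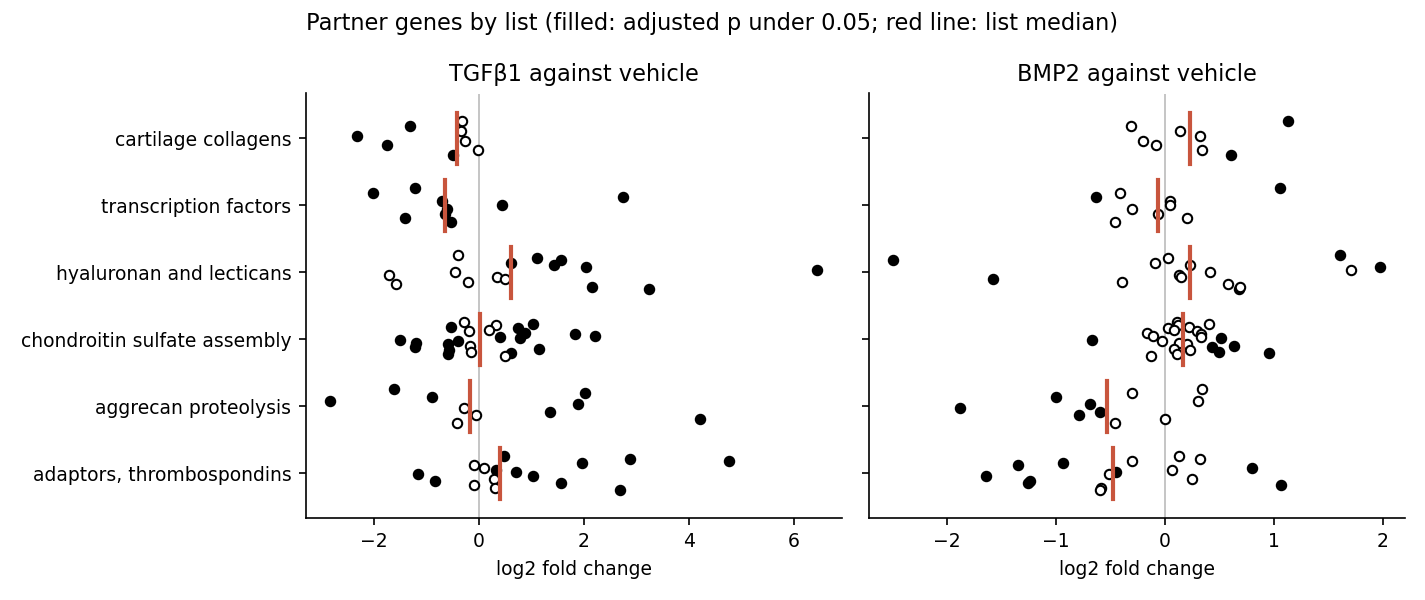
Log2 fold change of every tested gene in the 6 partner lists, for TGFβ1 and for BMP2 against vehicle; filled points have an adjusted p under 0.05 and the red line is the list median. The hyaluronan and lectican list has its TGFβ1 median at 0.61, and the aggrecan proteolysis list has 5 filled points with BMP2, all below 0.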

How the data were processed

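Bulk RNA sequencing of 7 libraries was analysed from the table of gene counts deposited by the authors, 1 whole-number count per gene name and library, with a gene length in nt. Tools named per the submitters' processing notes are STAR 2.4.2a, cutadapt, featureCounts, Subread and DESeq2, with the mm10 build; no source used here names the annotation, the use of strand or the treatment of multi-mapped reads. The length column deposited by the authors has no stated definition and was used only for values per kilobase and the length offset.

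Raw counts were fitted with edgeR 4.0.16 in R 4.3.3: filterByExpr by group (minimum count 10), TMM scaling, and 1 quasi-likelihood fit over all 7 libraries (4 residual degrees of freedom), with 2-sided tests, p-values adjusted by Benjamini-Hochberg across all 13367 tested genes, and 0.05 as the threshold. A gene rose or fell where it passed; intervals are 95% and unadjusted. Precision depends on the counts of a gene and on the spread between libraries, and intervals cover no error beyond that spread.

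The members and lists were chosen with earlier results of these data known, and so were the rules for named genes: all 7 members, up to 4 genes per list with the smallest p in each comparison, 7 further list genes, and the 3 nearest genes per member. The text names a part of the list genes, chosen for brevity with values in view; list counts cover all tested genes. Positions came from GENCODE M21 (mm10): 45707 names matched as given, 2394 with another separator, 199 through a synonym, and 4159 were unmatched. Alternatives were DESeq2 1.42.0, its size factors in edgeR, no filter, only the libraries compared, a replicate block, 2 length offsets (lowess spans 0.15 and 0.3), scaling from genes of at least 2000 nt, and each library left out.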

Additional observations from a re-analysis of the deposited data

How the results depend on the processing

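Across 15 alternatives, the falls of Acan, Hapln1, Matn1, Matn3 and Matn4 with TGFβ1, the fall of Matn1 with BMP2, and the ligand differences of those 5 genes kept their direction and stayed past the threshold. Where a call below moved, the cause was not tested. Scaling from genes of at least 2000 nt moved the median log2 difference of all genes from −0.02 to 0.10 (TGFβ1 against vehicle) and from −0.02 to −0.14 (BMP2 against TGFβ1). TGFβ1 against vehicle: Matn2 passed with the deposited-length offset (−0.40), and Comp passed with no filter (−0.47), with only the libraries compared (−0.44), with the deposited-length offset (−0.67) and the length and GC offset (−0.68), and without BMP2 replicate 1 (−0.43); leaving out 1 library moved Matn2 between −0.40 and −0.18 and Comp between −0.55 and −0.32. BMP2 against vehicle: Hapln1 passed with DESeq2 (0.44), no filter (0.43), only the libraries compared (0.42), the length offset (0.48) and the length and GC offset (0.45), and ran from 0.36 to 0.50 with 1 library left out. Over such omissions Acan ran from 0.59 to 0.69, Matn4 from −0.087 (without BMP2 replicate 3) to 0.24 and Comp from −0.18 to 0.17, and the count of members called from 1 to 3. BMP2 against TGFβ1: Comp was 0.76 with the length and GC offset, Matn2 was 0.25 and Comp 0.38 with scaling from genes of at least 2000 nt, Comp was 0.54 with only the libraries compared (edgeR adjusted p = 0.0508), and with 1 library left out they ran from 0.33 to 0.41 and from 0.26 to 0.60. The labels do not say if the replicate numbers pair the libraries. Groups shared at most 2 numbers, and the deviations of same-numbered libraries correlated at −0.14 to 0.00 across genes. With so few shared numbers, these correlations cannot decide if the libraries were paired. With the replicate block (2 residual degrees of freedom), Acan with BMP2 was 0.61 (edgeR adjusted p = 0.0633), Matn4 with BMP2 −0.050, and in BMP2 against TGFβ1 Matn2 was 0.33 and Comp 0.50, none of them past the threshold; members called with BMP2 went from 2 to 1, called genes of the 6 lists from 28 to 16, and called genes of the whole table from 1535 to 771. Leaving out 1 library gave 14 to 28 list genes and 557 to 1698 genes of the whole table for BMP2 against vehicle; the lowest values came without a vehicle library. Ligand differences that were not called changed sign for Col2a1 (from 0.07 to −0.063 with the length and GC offset and −0.050 with the 2000 nt scaling, and between −0.062 and 0.19 with 1 library left out) and for Adamts5 (from −0.20 to 0.032 with 1 library left out), which passed at −0.67 with the length and GC offset (edgeR adjusted p = 0.0129). Over the list genes examined singly, 1341 of 1425 alternative values kept their direction and call. These genes were picked in part by the smallest p in the main fit, so the share does not describe the whole lists. Depth limits Matn4, with 30 to 100 counts per library.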
